A study of Mus musculus with 18 samples.

Results

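The CD antigens are cell surface molecules that were catalogued through the antibodies that bind them, and blood cells are typed and sorted by them. The genes described here are the 48 whose mouse symbol begins with Cd and a digit, with a probe set annotated to a single gene. They are among 9636 genes with such a probe set in the deposited values. The B cell receptor chains Cd79a and Cd79b, Cd200r3 and the intracellular proteins Cd2ap, Cd2bp2 and Cd3eap, 6 genes in all, were left out by the rule. Each of the 48 genes had 1 probe set in the deposited values. The rule is on names and used no measured difference, but this class of genes was picked with earlier results of these data known.

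Gene expression was measured on Affymetrix mouse expression arrays in bone marrow progenitors of Balb/c mice with a myeloproliferative neoplasm (MPN) driven by retroviral JAK2V617F, the activated form of the Janus kinase JAK2, in which transduced cells also carry GFP. Marrow pooled from several mice was cultured for 16 h in IL-3 at 50 ng/mL and SCF at 100 ng/mL, with a TNFR2 blocking antibody (BA) at 10 μg/mL, a TNFR1 BA at 10 μg/mL, or no BA. Cells without lineage antigens and with Kit (Lin-Kit+) were then sorted into GFP+ (JAK2V617F+) and GFP- (JAK2V617F-) cells. The study ran 3 independent experiments, which gave 6 groups of 3 arrays. The groups were TNFR2 BA JAK2V617F+, TNFR2 BA JAK2V617F-, TNFR1 BA JAK2V617F+, TNFR1 BA JAK2V617F-, untreated JAK2V617F+ and untreated JAK2V617F-. All groups come from diseased mice and were kept in the same cytokines, and JAK2V617F- cells are the untransduced cells of these mice, not cells of healthy ones. The array of untreated JAK2V617F+ replicate 3, which stood apart from the others in signal, was left out, so that group had 2 arrays and 17 of 18 arrays were used.

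As background, CD antigens of primitive blood cells include the sialomucin Cd34, and the SLAM family receptors Cd48 and Cd244a are used to grade progenitors. Tetraspanins such as Cd9, Cd81 and Cd82 organise other membrane proteins, and Cd47, Cd55 and Cd24a sit on many blood cells. Cd80, Cd86 and Cd83 are carried by antigen presenting cells, where Cd80 and Cd86 bind Cd28 on T cells and Cd74 chaperones MHC class II. Cd8a, Cd7, Cd96 and Cd247 mark T and NK cells, which a Lin- gate is meant to remove.

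Promoter sequences are shown for leading members of the genotype comparison, Cd200r4, Cd244a and Cd80, and for Cd300a of the BA comparisons, as these had a window in the RefSeq table of GRCm38.p6. Each is the 250 bases before the annotated start on the + strand, 5′ to 3′, at chr16:44820478-44820727, chr1:171558943-171559192, chr16:38458683-38458932 and chr11:114889791-114890040 in that order. Capitals mark matches on either strand to GATAA, the core bound by GATA factors, to GAGGAA, a core bound by PU.1, or to the NF-kB consensus, with 0 bases shared between matches.
Cd200r4: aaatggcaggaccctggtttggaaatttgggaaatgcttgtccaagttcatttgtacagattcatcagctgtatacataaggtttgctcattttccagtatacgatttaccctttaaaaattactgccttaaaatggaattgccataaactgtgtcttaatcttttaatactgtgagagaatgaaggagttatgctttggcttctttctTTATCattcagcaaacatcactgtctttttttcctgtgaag
Cd244a: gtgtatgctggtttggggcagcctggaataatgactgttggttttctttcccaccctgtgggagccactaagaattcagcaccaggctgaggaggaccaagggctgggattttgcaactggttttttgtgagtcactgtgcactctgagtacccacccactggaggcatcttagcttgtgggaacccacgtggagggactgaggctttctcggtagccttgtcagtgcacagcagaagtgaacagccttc
Cd80: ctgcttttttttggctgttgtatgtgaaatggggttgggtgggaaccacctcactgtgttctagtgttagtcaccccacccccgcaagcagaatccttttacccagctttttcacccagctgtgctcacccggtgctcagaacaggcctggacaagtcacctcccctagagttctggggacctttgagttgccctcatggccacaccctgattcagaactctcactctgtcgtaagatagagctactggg
Cd300a: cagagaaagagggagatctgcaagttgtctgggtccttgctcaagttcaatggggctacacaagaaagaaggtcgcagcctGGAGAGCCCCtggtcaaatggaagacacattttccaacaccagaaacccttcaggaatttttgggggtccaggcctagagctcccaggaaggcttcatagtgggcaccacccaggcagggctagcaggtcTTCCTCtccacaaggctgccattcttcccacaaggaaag
The Cd200r4 window held 1 GATAA match and the Cd300a window 1 GAGGAA and 1 NF-kB match, while the Cd244a and Cd80 windows held 0. Among all 32851 windows of this length, 22.6% held GATAA, 23.3% GAGGAA and 7.3% the NF-kB consensus. Of the 48 genes, 33 had a window, 41 windows in all, of which 6 held GATAA, 15 GAGGAA and 4 the NF-kB consensus. A match is a stretch of letters and was not set against the measured signals.

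Values are log2 signals per probe set as deposited, where a difference of 1 is a 2-fold change in signal. They lay between 2.22 and 15.49 over all probe sets, and where a group sits near 2.22 its difference from another may be too small. Array medians lay between 7.41 and 7.75 on the 17 arrays used, against 6.05 on the array left out. Kit, the antigen of the gate, had log2 signals of 3.71 to 9.95 in JAK2V617F+ and 4.19 to 9.20 in JAK2V617F- arrays. Ptprc, which encodes the leukocyte antigen CD45, was under 4 on 13 of 17 arrays, so its probe set did not show the blood cell identity of most samples. Jak2 differed between JAK2V617F+ and JAK2V617F- cells by 0.66 over the 3 treatments (standard error 0.65, adjusted p = 0.763 from limma). Whether its probe set detects the retroviral JAK2V617F is not stated in what was read, so this value does not check the sort. The mean log2 signal over 8 measured mast cell and basophil genes separated the genotypes. It was 11.32 to 12.52 in JAK2V617F+ and 6.52 to 8.75 in JAK2V617F- arrays. Of the 8, 5 passed the test (Tpsab1, Tpsb2, Cma1, Cpa3 and Fcer1a), where 0.3% of all probe sets passed as higher. The genotypes overlapped for Mcpt8 and Ms4a2, which differed by 0.81 and 1.60 (adjusted p = 0.400 and 0.253 from limma). These marker lists were chosen with earlier results of these data known. Over 7 measured erythroid genes the mean was 8.06 to 10.96 in JAK2V617F+ and 6.12 to 8.11 in JAK2V617F- arrays, with 7 of 7 differences positive and a median of 2.52, and 2 of them, Car2 and Ermap, passed the test. Of 8 measured stem and progenitor marker genes other than the CD genes described here, 3 had a positive and 5 a negative difference, and 0 passed. The part of these lists in the values of the CD genes was not tested.

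The CD antigens had signal on every array, on some arrays, or on few. No array was under a log2 signal of 4 for 19 of the 48 genes, among them Cd34, Cd48, Cd93, Cd24a, Cd47, Cd81, Cd44, Cd74 and Cd52. For 16 genes some arrays were under 4, and for 13 genes at least 9 of the 17 arrays were, namely Cd14, Cd160, Cd276, Cd28, Cd302, Cd37, Cd53, Cd7, Cd72, Cd80, Cd86, Cd8a and Cd96. The T cell antigen Cd8a was under 4 on 8 of 8 JAK2V617F+ and 7 of 9 JAK2V617F- arrays, and Cd7 on 8 of 8 and 5 of 9. Cd3e, Cd4, Cd36, Cd63 and Cd200 were not analysed here. The steadiest members were Cd24a, whose 17 arrays spanned 1.15 log2 units, Cd47 (1.34) and Cd81 (1.52). The widest was Cd177, a surface protein of neutrophils, which spanned 10.06 and lay between 2.49 and 12.55. The median standard deviation within groups was 1.37 for the 48 genes and 1.45 for all probe sets.

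**Figure D1:**
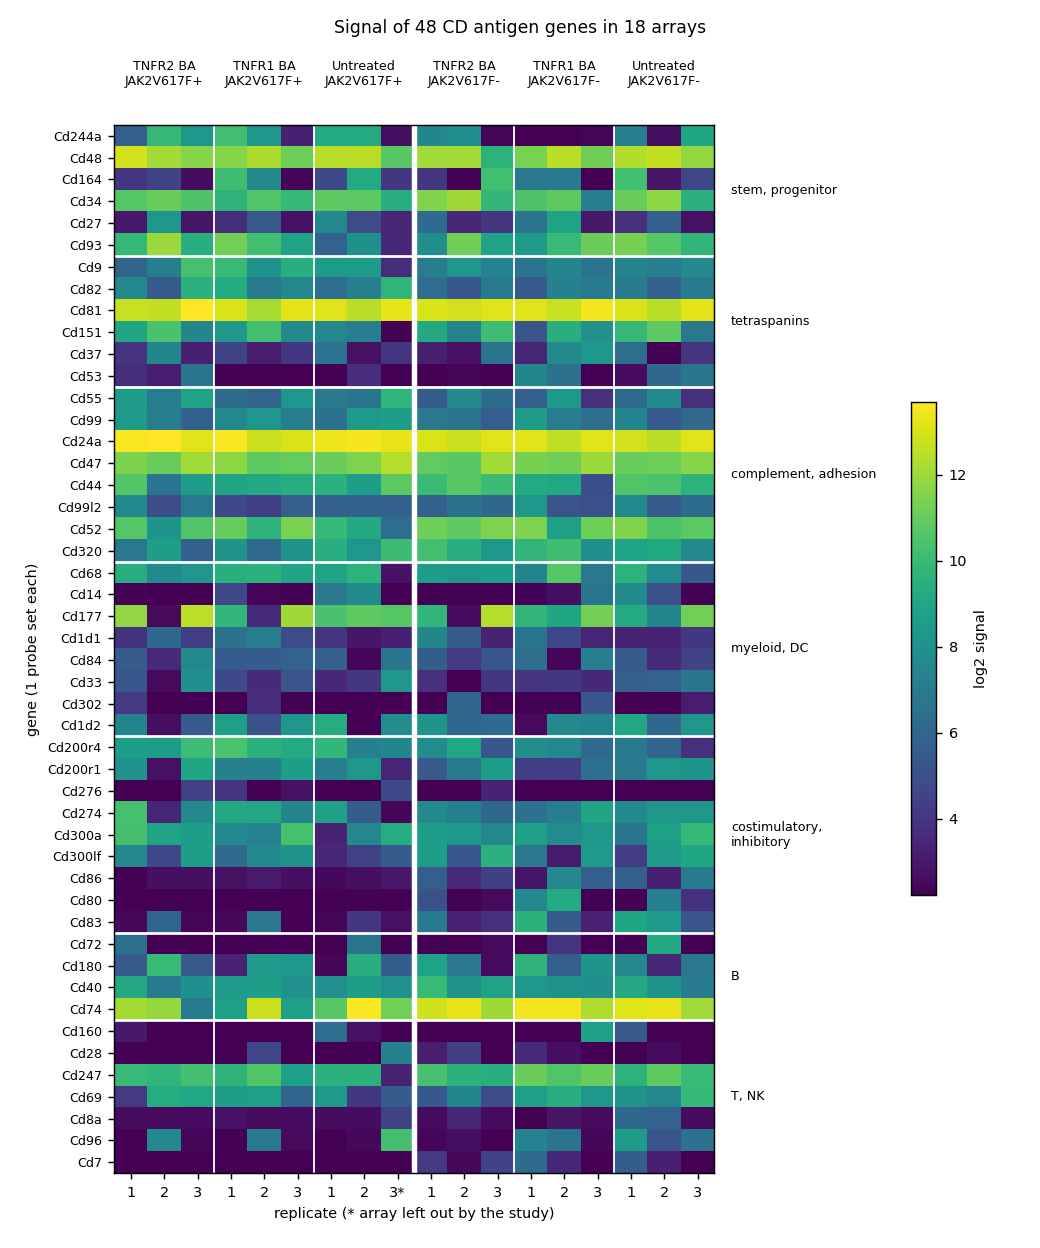
Log2 signal (colour) of the 48 CD antigen genes (rows, by role) in each of the 18 arrays (columns, by group and replicate number, with the array left out marked). Cd24a, Cd81 and Cd48 are bright throughout, and the rows of Cd80, Cd86 and Cd7 stay under 4 in all JAK2V617F+ arrays used and exceed it in some JAK2V617F- arrays.

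JAK2V617F+ and JAK2V617F- cells were compared first over the 3 treatments, as the mean of the differences within treatments. The leading differences were lower values of Cd86, Cd80, Cd83 and Cd74 and higher values of Cd200r4 and Cd244a in JAK2V617F+ cells, by -2.05 to -2.58 and by 2.40 and 3.31 on the log2 scale, while Cd34, Cd47 and Cd81 differed by 0.08, -0.01 and -0.14. None of these passed the test: 0 of 48 genes had an adjusted p under 0.05 from limma, where 0.358% of all probe sets did (0.3% higher and 0.0581% lower), and a paired t-test by replicate number, which called 0 of all probe sets, also called 0. At an unadjusted p under 0.05, 9 of 48 were found (18.8%, against 10.3% of all probe sets). Of these, 3 were higher (6.25%, against 5.21%) and 6 lower (12.5%, against 5.08%). The median difference was -0.14 for the 48 genes and 0.00 for all probe sets, and 21 genes had a positive and 27 a negative difference. The signals of the genotypes overlapped for all 48 genes, for Cd80 and Cd7 only near the lowest value of the table. The share of all probe sets whose genotypes overlapped was not counted, so this says nothing particular to these genes.

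**Figure D2:**
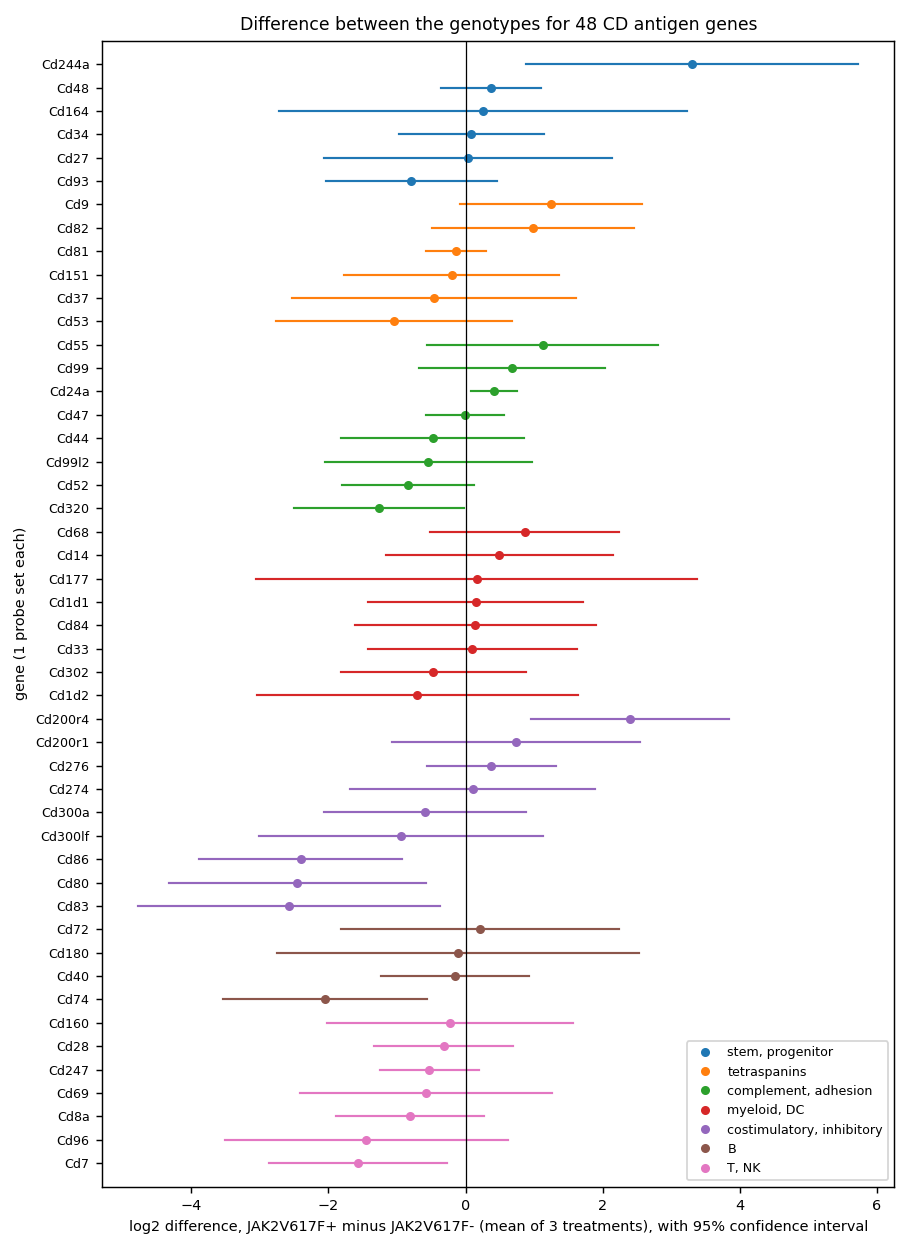
Log2 difference between JAK2V617F+ and JAK2V617F- cells over the 3 treatments for the 48 CD antigen genes, coloured by role, with a point for the estimate and a bar for its 95% confidence interval from limma. Before adjustment the intervals of Cd86, Cd80, Cd83, Cd74, Cd7 and Cd320 lie below 0 and those of Cd200r4, Cd244a and Cd24a above it, and 0 genes passed after it.

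Among the costimulatory and inhibitory ligands and receptors, 4 of 9 genes had a positive and 5 a negative difference. Cd86, a ligand of Cd28, had log2 signals of 2.28, 2.71 and 2.71 in TNFR2 BA JAK2V617F+ against 5.70, 3.57 and 4.39 in TNFR2 BA JAK2V617F- arrays (replicates 1, 2 and 3). With TNFR1 BA it had 2.73, 3.05 and 2.71 in JAK2V617F+ against 2.89, 7.52 and 5.67 in JAK2V617F- arrays, and untreated 2.46 and 2.71 against 5.72, 3.23 and 6.90. All 8 JAK2V617F+ arrays thus lay near the lowest value of the table, and 6 of 9 JAK2V617F- arrays were above 4. The difference was -2.41 (standard error 0.70, unadjusted p = 0.00317, adjusted p = 0.211 from limma). It was -2.28, -1.95 and -2.32 within replicate numbers 1, 2 and 3. The fit pools the spread over groups, while the SD of Cd86 was 0.17 to 0.25 in JAK2V617F+ and 1.07 to 2.33 in JAK2V617F- groups. Standard errors and p-values of genes held near the lowest value in some groups are therefore approximate.

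Cd80, the other ligand of Cd28 in the list, lay between 2.22 and 2.27 on the 8 JAK2V617F+ arrays. In JAK2V617F- arrays it had 5.06, 2.22 and 2.50 with TNFR2 BA, 7.52, 9.26 and 2.22 with TNFR1 BA, and 2.22, 7.23 and 3.88 untreated. Signal above 4 was therefore seen on 4 JAK2V617F- arrays, and the other 5 were under 4. The difference was -2.45 (standard error 0.89, unadjusted p = 0.0135, adjusted p = 0.338 from limma), and -2.71, -4.00 and -0.14 within replicate numbers 1, 2 and 3.

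Cd83, a surface protein of activated dendritic cells, had 2.48, 5.93 and 2.37 in TNFR2 BA JAK2V617F+ against 6.88, 3.29 and 3.86 in TNFR2 BA JAK2V617F- arrays. It had 2.48, 6.75 and 2.22 with TNFR1 BA in JAK2V617F+ against 9.58, 5.57 and 3.29 in JAK2V617F- arrays, and untreated 2.42 and 4.05 against 8.98, 8.43 and 5.23. The genotypes overlapped with either BA and did not overlap untreated, and replicate 2 held the 3 highest JAK2V617F+ values. The difference was -2.58 (standard error 1.04, unadjusted p = 0.0242, adjusted p = 0.404 from limma). It was -0.72 without replicate 1 and -3.90 without replicate 2.

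Cd74, the invariant chain of MHC class II, was bright in every JAK2V617F- array. It had 12.14, 11.85 and 6.95 in TNFR2 BA JAK2V617F+ against 12.84, 13.30 and 12.05 in TNFR2 BA JAK2V617F- arrays. With TNFR1 BA it had 8.75, 12.75 and 8.69 in JAK2V617F+ against 13.50, 13.47 and 12.31 in JAK2V617F- arrays, and untreated 10.71 and 13.61 against 13.11, 13.36 and 12.09. Of the 8 JAK2V617F+ arrays, 5 lay below every JAK2V617F- array. The difference was -2.05 (standard error 0.71, unadjusted p = 0.00988, adjusted p = 0.311 from limma), and -2.62, -0.64 and -4.36 within replicate numbers 1, 2 and 3.

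Marker genes of cells that carry these antigens gave the following values. Of 7 measured genes of monocytes, macrophages and of dendritic cells, 5 had a negative difference and 0 passed, with a mean log2 signal of 6.14 to 8.95 in JAK2V617F+ and 6.78 to 9.43 in JAK2V617F- arrays. Of 4 measured B cell genes, 4 had a negative difference and 0 passed, with 2.51 to 5.49 in JAK2V617F+ and 2.41 to 7.79 in JAK2V617F- arrays. Ebf1, a transcription factor gene of B cells, was under 4 on 16 of 17 arrays. The part of these cells in the Cd86, Cd80, Cd83 and Cd74 values was not tested, and in bulk samples fewer cells of a type and less RNA per cell cannot be told apart.

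Cd200r4, a receptor of the Cd200 receptor family, had higher mean values in JAK2V617F+ cells in each treatment, without passing the test. It had 8.62, 8.53 and 10.12 in TNFR2 BA JAK2V617F+ against 7.80, 9.07 and 5.31 in TNFR2 BA JAK2V617F- arrays. With TNFR1 BA it had 10.43, 9.59 and 9.21 in JAK2V617F+ against 7.88, 7.57 and 6.18 in JAK2V617F- arrays, and untreated 9.83 and 7.21 against 6.84, 5.96 and 3.81. The genotypes did not overlap with TNFR1 BA or untreated, and overlapped with TNFR2 BA through JAK2V617F- replicate 2. The difference of 2.40 (standard error 0.69, unadjusted p = 0.00259, adjusted p = 0.196 from limma) had the lowest adjusted p of the 48 genes in this comparison. It was 2.12, 0.91 and 3.92 within replicate numbers 1, 2 and 3, and 1.51 without replicate 3. The mast cell and basophil list given above moved with the same genotype, and its part in the Cd200r4 value was not tested.

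Its relative Cd200r1, an inhibitory receptor for Cd200, differed by 0.74 (95% confidence interval -1.08 to 2.55). Cd274, which encodes the checkpoint ligand PD-L1, differed by 0.11 (95% confidence interval -1.68 to 1.89). The receptors Cd300a and Cd300lf, which recognise membrane lipids, differed by -0.59 and -0.94, with confidence intervals that include 0.

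Of the 6 stem and progenitor antigens, 5 had a positive difference and 1, Cd93, a negative one, while most of the stem and progenitor markers given above were negative. Cd244a, a SLAM family receptor known from NK cells whose ligand is Cd48, had 5.74, 9.88 and 8.28 in TNFR2 BA JAK2V617F+ against 7.46, 7.88 and 2.38 in TNFR2 BA JAK2V617F- arrays. With TNFR1 BA it had 10.19, 8.23 and 3.21 in JAK2V617F+ against 2.26, 2.22 and 2.38 in JAK2V617F- arrays, and untreated 9.23 and 9.22 against 7.15, 2.71 and 8.98. The 3 TNFR1 BA JAK2V617F- arrays were near the lowest value, and in the other treatments JAK2V617F- arrays held both high and low values. The difference was 3.31 (standard error 1.15, unadjusted p = 0.0102, adjusted p = 0.318 from limma), and 2.58 with the omitted array added back, on which Cd244a had 2.71.

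Cd48 had a median of 12.17 in JAK2V617F+ and 12.07 in JAK2V617F- arrays and differed by 0.38 (95% confidence interval -0.35 to 1.11). Cd34 had a median of 10.60 in JAK2V617F+ and 10.85 in JAK2V617F- arrays and differed by 0.08 (95% confidence interval -0.97 to 1.14). The sialomucin gene Cd164 ran over 2.37 to 10.17 in JAK2V617F+ and 2.22 to 10.22 in JAK2V617F- arrays. Cd27, a member of the TNF receptor superfamily, differed by 0.04 (95% confidence interval -2.06 to 2.14). These intervals leave room for differences of 1 log2 unit in each of Cd48, Cd34 and Cd27.

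**Figure D3:**
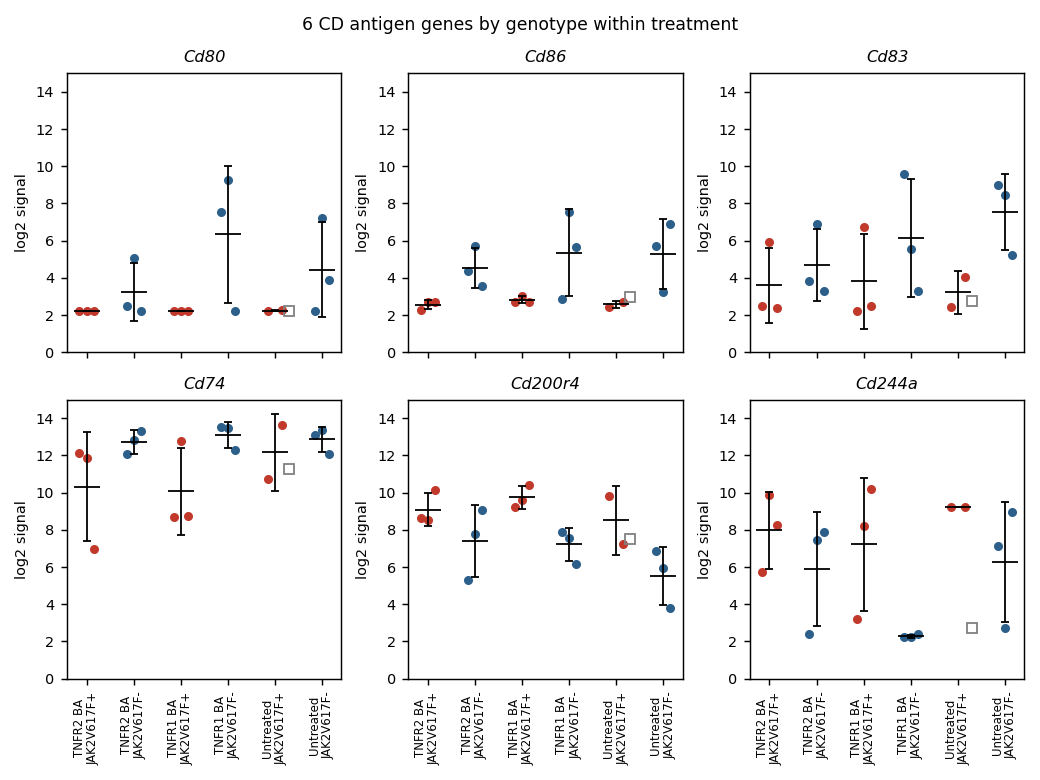
Log2 signal of Cd80, Cd86, Cd83, Cd74, Cd200r4 and Cd244a on each array, with JAK2V617F+ (red) beside JAK2V617F- (blue) within each treatment, as a point per array used, an open square for the array left out, and the group mean with its SD. All 8 JAK2V617F+ points of Cd80 lie at 2.22 to 2.27 and those of Cd86 at 2.28 to 3.05, and 5 and 3 of the 9 JAK2V617F- points of these genes are also under 4.

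Of the 6 tetraspanin genes, 2 had a positive and 4 a negative difference, with 0 at an adjusted or unadjusted p under 0.05. Cd9, which is found on megakaryocytes and mast cells among others, had a lowest, median and highest log2 signal of 5.91, 8.53 and 10.36 in JAK2V617F+ and 6.60, 7.28 and 8.23 in JAK2V617F- arrays. Its difference was 1.25 (standard error 0.63, unadjusted p = 0.0627, adjusted p = 0.5 from limma), and 0.82 without TNFR2 BA JAK2V617F+ replicate 3. Over 5 measured megakaryocyte genes, of which 0 passed, the mean log2 signal was 5.28 to 8.12 in JAK2V617F+ and 4.65 to 5.43 in JAK2V617F- arrays, and their part in the Cd9 value was not tested. Cd82 differed by 0.99 (95% confidence interval -0.48 to 2.45) and Cd81 by -0.14 (95% confidence interval -0.57 to 0.29).

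Of the 8 complement regulators, adhesion molecules and scavenger receptors, 3 had a positive and 5 a negative difference. Cd24a, a small GPI-anchored glycoprotein, had 12.78, 13.47 and 13.64 as its lowest, median and highest log2 signal in JAK2V617F+ and 12.50, 13.05 and 13.18 in JAK2V617F- arrays. The difference of 0.42 (standard error 0.16, unadjusted p = 0.0181, adjusted p = 0.369 from limma) was set against the smallest spread within groups of the 48 genes (SD 0.31). It was 0.49, 0.71 and -0.06 within replicate numbers 1, 2 and 3. Cd320, the receptor for transcobalamin, had 5.74, 8.15 and 9.44 in JAK2V617F+ and 7.60, 9.19 and 10.24 in JAK2V617F- arrays. Its difference was -1.26 (standard error 0.59, unadjusted p = 0.0473, adjusted p = 0.479 from limma), and -1.48, -1.93 and -1.18 within replicate numbers 1, 2 and 3. The hyaluronan receptor Cd44, the SIRPα ligand Cd47 and the complement regulator Cd55 differed by -0.48, -0.01 and 1.13. For Cd55 the 95% confidence interval was -0.56 to 2.81 and the values within replicate numbers 1, 2 and 3 were 1.41, -1.38 and 3.53, and without replicate 3 the difference was 0.02.

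All 7 T and NK cell antigens had a negative difference, with a median of -0.58, where 50.0% of all probe sets were negative. Within treatments this was not uniform, with 3 of 7 negative with TNFR2 BA (median 0.24), 5 of 7 with TNFR1 BA (median -1.24) and 6 of 7 untreated (median -1.46). Most of these genes had little signal. Of the 17 arrays, Cd8a and Cd28 were under 4 on 15, Cd160 on 14, Cd7 on 13 and Cd96 on 10, while Cd247 and Cd69 were on 0. Cd7 lay between 2.22 and 2.23 on the 8 JAK2V617F+ arrays. In JAK2V617F- arrays it had 4.13, 2.47 and 4.56 with TNFR2 BA, 6.24, 3.48 and 2.22 with TNFR1 BA and 5.58, 3.22 and 2.22 untreated. Its difference was -1.57 (standard error 0.62, unadjusted p = 0.0204, adjusted p = 0.391 from limma), and -0.81 without replicate 1. Cd247, the zeta chain of the T cell receptor complex, had a median of 9.73 in JAK2V617F+ and 10.33 in JAK2V617F- arrays and a difference of -0.53. Over 3 measured T and NK cell marker genes outside the CD list, of which 0 passed, the mean log2 signal was 6.38 to 9.43 in JAK2V617F+ and 7.11 to 9.49 in JAK2V617F- arrays, and their part in these values was not tested. Of the 4 B cell antigens, Cd74 is given above, and Cd40, Cd180 and Cd72 differed by -0.15, -0.11 and 0.21.

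Of the 8 myeloid, macrophage and dendritic cell antigens, 6 had a positive and 2 a negative difference, with 0 at an adjusted or unadjusted p under 0.05 and a median of 0.14. The lysosomal glycoprotein gene Cd68 had 7.67, 9.15 and 9.62 in JAK2V617F+ and 5.35, 8.29 and 10.68 in JAK2V617F- arrays as lowest, median and highest, a difference of 0.86 (95% confidence interval -0.52 to 2.24). The sialic acid binding receptor Cd33 and the neutrophil antigen Cd177 differed by 0.10 and 0.16. Cd1d1 and Cd1d2, which present lipids, are close copies, so their values of 0.15 and -0.70 may not be separate.

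Within single treatments, 0 of the 48 genes passed from limma or by the paired t-test. With TNFR2 BA 0.0387% of all probe sets passed from limma (0.0387% higher and 0.0% lower), with TNFR1 BA 0.0871% (0.0774% higher and 0.00968% lower) and untreated 0.0774% (0.0581% higher and 0.0194% lower). At an unadjusted p under 0.05, 1 gene was found with TNFR2 BA (2.08%, where all probe sets gave 5.63%), 0 higher, against 2.77% of all probe sets, and 1 lower, against 2.86%. With TNFR1 BA there were 8 (16.7%, where all probe sets gave 6.21%), 3 higher, against 3.86% of all probe sets, and 5 lower, against 2.35%. Untreated there were 6 (12.5%, where all probe sets gave 7.32%), 1 higher, against 2.85% of all probe sets, and 5 lower, against 4.47%. With TNFR2 BA the gene was Cd320 (-2.30, adjusted p = 0.839). With TNFR1 BA Cd244a differed by 4.92 (standard error 1.92, adjusted p = 0.687) and Cd80 by -4.12 (standard error 1.49, adjusted p = 0.62). Untreated, Cd93 differed by -3.69 (standard error 1.10, adjusted p = 0.432). These rest on few arrays, since Cd80 differed by -2.65 without TNFR1 BA JAK2V617F- replicate 2, and Cd93 by -2.25 without replicate 1.

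The BA comparisons asked whether blocking either TNF receptor altered the antigens within a genotype. In JAK2V617F+ cells Cd93 and Cd300a had higher and Cd14 lower mean values with either BA than in the 2 untreated arrays, and none passed the test. For Cd300a the TNFR1 BA arrays (lowest 7.29) overlapped the untreated ones (highest 7.53). For TNFR2 BA against untreated JAK2V617F+ cells, 0 of 48 genes passed from limma or by the paired t-test, where 0.029% of all probe sets passed from limma (0.0194% higher and 0.00968% lower). At an unadjusted p under 0.05 there were 3 (6.25%, where all probe sets gave 5.26%), 2 higher, against 3.18% of all probe sets, and 1 lower, against 2.08%. For TNFR1 BA against untreated, 0 passed by either test, where 0.00968% of all probe sets passed from limma (0.00968% higher and 0.0% lower). At an unadjusted p under 0.05 there were 3 (6.25%, where all probe sets gave 6.78%), 2 higher, against 4.35% of all probe sets, and 1 lower, against 2.43%. These shares are close to those of all probe sets. The untreated arrays are shared by both comparisons, and a gene found in each is not separate evidence. The counts over all probe sets rest on these arrays, since without untreated JAK2V617F+ replicate 1 they were 49 higher and 6 lower for TNFR2 BA and 115 higher and 17 lower for TNFR1 BA, still with 0 of the 48 genes.

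Cd93, a C-type lectin like receptor of early progenitors and endothelium, had 9.84, 11.95 and 9.40 with TNFR2 BA and 11.22, 10.21 and 8.83 with TNFR1 BA, against 5.82 and 7.96 in untreated JAK2V617F+ arrays. Every BA array lay above both untreated arrays. The difference was 3.51 with TNFR2 BA (standard error 1.10, unadjusted p = 0.00537, adjusted p = 0.763 from limma) and 3.20 with TNFR1 BA (standard error 1.10, unadjusted p = 0.00979, adjusted p = 0.58 from limma). In JAK2V617F- cells Cd93 had 7.93, 11.20 and 8.84 with TNFR2 BA and 8.47, 9.98 and 11.10 with TNFR1 BA, against 11.32, 10.67 and 9.75 untreated. On the untreated JAK2V617F+ array left out Cd93 had 3.55, below both arrays used, and with it added back the differences in JAK2V617F+ cells were 4.62 and 4.31. Without untreated JAK2V617F+ replicate 1 they were 2.43 with TNFR2 BA and 2.12 with TNFR1 BA. Over all leave-one-out fits, which dropped 1 array or 1 whole replicate number, they ran over 2.43 to 4.58 and 1.56 to 4.27.

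The change of Cd93 with TNFR2 BA was larger in JAK2V617F+ than in JAK2V617F- cells by 4.76 (standard error 1.48, unadjusted p = 0.00493, adjusted p = 0.997 from limma), and that with TNFR1 BA by 3.93 (standard error 1.48, unadjusted p = 0.0164, adjusted p = 0.923 from limma). Without replicate 1 these were 2.90 and 1.23. For such differences of changes, 0 of 48 genes passed with either BA from limma or by the paired t-test, and 0.0% of all probe sets passed from limma. With TNFR2 BA 5 genes had an unadjusted p under 0.05, Cd93, Cd96, Cd300a, Cd33 and Cd53 (10.4%, where all probe sets gave 3.83%), 5 higher, against 2.24% of all probe sets, and 0 lower, against 1.6%. With TNFR1 BA Cd93 alone did (2.08%, where all probe sets gave 5.22%), 1 higher, against 3.5% of all probe sets, and 0 lower, against 1.72%. The same 2 untreated JAK2V617F+ arrays enter all of these values. On the array left out Cd96, Cd33 and Cd300a had 10.31, 8.30 and 9.33, above both arrays used. Cd93 and Cd53 had 3.55 and 2.22 there, not above them.

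Cd14, the coreceptor for bacterial lipopolysaccharide on monocytes, had 2.31, 2.22 and 2.22 with TNFR2 BA and 4.68, 2.37 and 2.28 with TNFR1 BA, against 6.76 and 7.69 in untreated JAK2V617F+ arrays. The difference was -4.97 with TNFR2 BA (standard error 1.47, unadjusted p = 0.00331, adjusted p = 0.763 from limma) and -4.11 with TNFR1 BA (standard error 1.47, unadjusted p = 0.0119, adjusted p = 0.59 from limma). In JAK2V617F- cells it had 2.28, 2.24 and 2.23 with TNFR2 BA and 2.31, 2.64 and 6.67 with TNFR1 BA, against 7.69, 5.0 and 2.28 untreated. Signal of Cd14 above 4 was thus seen on 2 of 12 BA arrays and 4 of 5 untreated arrays. The array left out had 2.22, and with it added back the differences in JAK2V617F+ cells were -3.31 and -2.44.

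Cd300a, an inhibitory receptor of myeloid and mast cells, had 10.31, 8.91 and 8.63 with TNFR2 BA and 7.59, 7.29 and 10.34 with TNFR1 BA, against 3.32 and 7.53 in untreated JAK2V617F+ arrays. The difference was 3.86 with TNFR2 BA (standard error 1.30, unadjusted p = 0.0085, adjusted p = 0.781 from limma) and 2.98 with TNFR1 BA (standard error 1.30, unadjusted p = 0.0347, adjusted p = 0.705 from limma). Without untreated JAK2V617F+ replicate 1, which held the lowest value, these were 1.76 and 0.88, and with the omitted array, at 9.33, added back they were 2.56 and 1.68.

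**Figure D4:**
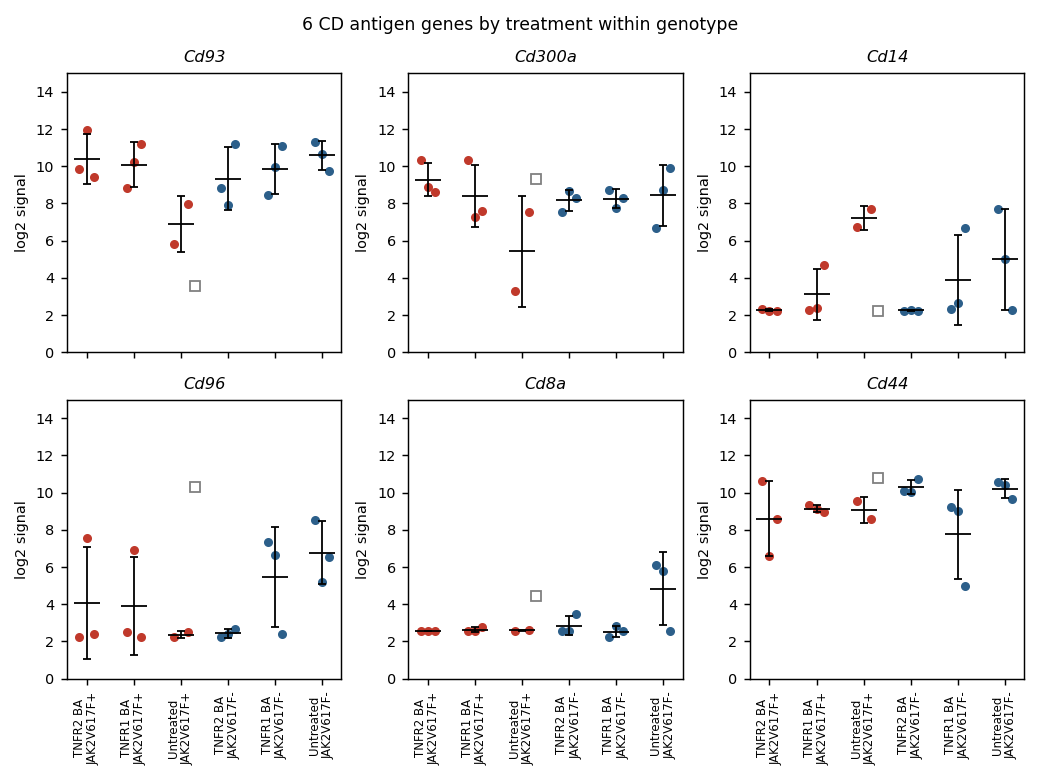
Log2 signal of Cd93, Cd300a, Cd14, Cd96, Cd8a and Cd44 on each array, by treatment within JAK2V617F+ (red) and JAK2V617F- (blue) cells, as a point per array used, an open square for the array left out, and the group mean with its SD. For Cd93 the open square (3.55) lies below both untreated JAK2V617F+ points, while for Cd14 (2.22) and Cd300a (9.33) it lies among the BA points.

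In JAK2V617F- cells, 0 of 48 genes passed from limma or by the paired t-test for TNFR2 BA or TNFR1 BA against untreated, where 0.0% and 0.0% of all probe sets passed from limma. At an unadjusted p under 0.05 there were 3 genes for TNFR2 BA (6.25%, where all probe sets gave 2.47%), 0 higher, against 1.16% of all probe sets, and 3 lower, against 1.31%. For TNFR1 BA there were 2 (4.17%, where all probe sets gave 3.73%), 0 higher, against 1.42% of all probe sets, and 2 lower, against 2.3%. Cd96, an adhesion receptor of T and NK cells, had 2.40, 2.66 and 2.22 with TNFR2 BA and 7.36, 6.65 and 2.38 with TNFR1 BA, against 8.54, 5.18 and 6.56 untreated. Its difference was -4.33 with TNFR2 BA (standard error 1.63, unadjusted p = 0.0164, adjusted p = 1 from limma), and the TNFR2 BA arrays all lay below the untreated ones. In JAK2V617F+ cells Cd96 was above 4 in replicate 2 of each BA and in neither untreated array used. The untreated JAK2V617F+ array left out had 10.31.

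Cd8a, a chain of the T cell coreceptor, was above 4 on 2 of the 17 arrays, both of them untreated JAK2V617F- arrays, where it had 6.10, 5.81 and 2.56. Its difference in JAK2V617F- cells was -1.97 with TNFR2 BA (standard error 0.85, unadjusted p = 0.0331, adjusted p = 1 from limma) and -2.29 with TNFR1 BA (standard error 0.85, unadjusted p = 0.0153, adjusted p = 1 from limma), and without replicate 1 it was -1.18 and -1.50. Cd44 had 10.05, 10.73 and 10.08 with TNFR2 BA and 9.24, 9.03 and 4.98 with TNFR1 BA, against 10.58, 10.42 and 9.63 untreated. Its TNFR1 BA arrays all lay below the untreated ones, replicate 3 by the most, a difference of -2.47 (standard error 1.05, unadjusted p = 0.0314, adjusted p = 1 from limma). Without that array the difference was -1.08.

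TNFR2 BA was also set against TNFR1 BA within each genotype. In JAK2V617F+ cells, 0 of 48 genes passed from limma or by the paired t-test, and 0.0% of all probe sets passed from limma. At an unadjusted p under 0.05 there were 0 of 48, where all probe sets gave 4.37% (1.9% higher and 2.48% lower). The 95% confidence interval of the difference was -1.77 to 2.39 for Cd93, -3.62 to 1.89 for Cd14 and -1.58 to 3.33 for Cd300a. In JAK2V617F- cells 0 passed likewise, with 0.0% of all probe sets, and 2 had an unadjusted p under 0.05 (4.17%, where all probe sets gave 3.7%), 1 higher, against 2.13% of all probe sets, and 1 lower, against 1.57%. These were Cd44 (2.53) and the tetraspanin gene Cd53 (-3.12). Cd44 differed by 1.15 without TNFR1 BA JAK2V617F- replicate 3, and Cd53 by -4.72 to -2.05 over the leave-one-out fits, the value nearest 0 being that without replicate 1.

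The CD nomenclature also holds antigens listed under other gene symbols, such as Kit, Tfrc, Itgam and Flt3. Of 53 such genes listed, 43 were measured, and over the 3 treatments 30 had a positive and 13 a negative difference between JAK2V617F+ and JAK2V617F- cells, with a median of 0.35. The test was passed by 0 of them from limma, where 0.358% of all probe sets passed. At an unadjusted p under 0.05 there were 3 of the 43, all higher, where all probe sets gave 10.3% (5.21% higher and 5.08% lower).

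By Entrez ID, 48 of 48 genes matched a mouse gene table of GRCm38.p6, with 0 symbols changed, and several members share a chromosome. The SLAM family genes Cd48, Cd84 and Cd244a are on chromosome 1, which holds 7 members, and Cd80, Cd86, Cd200r1, Cd200r4, Cd47 and Cd96 are on chromosome 16. On chromosome 16 the differences ran both ways, with -2.45 for Cd80 and -2.41 for Cd86 beside 2.40 for Cd200r4.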

How the data were processed

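Log2 signals per probe set were deposited by the authors, who made them with Affymetrix Expression Console. How that program normalized the arrays is not stated in what was read, and the values were used as they are. Gene names were taken from the array's annotation table. Of the 10335 probe sets deposited, 9651 had a single symbol, 27 several and 657 none. How the 10335 were chosen is not stated in what was read, and shares of all probe sets are shares of them. A gene was represented by its probe set of highest mean.

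Groups were taken from the sample titles. One untreated JAK2V617F+ array failed the quality standards of the study and was left out. Comparisons used limma 3.58.1 in R 4.3.3 on all probe sets, with 6 group means and a variance trend. Benjamini-Hochberg adjustment was over all probe sets at a threshold of 0.05. This fit did not pair the genotypes of an experiment, and replicate numbers entered only the alternatives given below. There were 10 comparisons and 2 differences of changes between genotypes. The number of arrays limits the precision, and p-values measure the spread between these arrays. The fit was also run on simulated data of independent noise. Differences planted there were larger than those of the CD genes over the treatments, so power for these genes was not measured.

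Named genes were the 8 members of smallest p in each direction over the treatments, the 2 in each direction elsewhere, any member past the threshold, and a set of common antigens. Members and lists were chosen with earlier results of these data known. The alternatives used 18 arrays, the replicate number as a block, only the groups compared, quantile normalization, probe sets of mean log2 signal of at least 6, no variance trend, array weights, a paired t-test by replicate number, or fewer arrays.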

Additional observations from a re-analysis of the deposited data

How the results depend on the processing

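Under all 28 alternatives, 20 of them leave-one-out fits, the number of the 48 genes past the threshold was 0 in each of the 12 comparisons. With the reported fit included, 0 of 348 counts were above 0. The filter on dim probe sets kept 28 of the 48 genes, so it says nothing on the other genes. Over all probe sets the paired t-test called 7 higher and 1 lower for TNFR2 BA and 3 higher and 0 lower for TNFR1 BA against untreated JAK2V617F+ cells, 1 higher and 1 lower between the untreated genotypes, and 0 in the other 9 comparisons, where its 0 among the 48 genes says nothing on their stability. The same holds wherever another alternative called 0 of all probe sets. Fits of only the groups compared, or without replicate 2 or 3, did so outside the comparison over the 3 treatments. With array weights this was also so for either BA against untreated JAK2V617F+ cells. The lowest adjusted p of a named difference was 0.065, for Cd74 over the 3 treatments with a replicate block (-2.28), and over its alternatives it ran to 0.824. For Cd86 the range was 0.0972 to 0.697. Of 69 named differences, 8 changed sign in a leave-one-out fit and 6 in at least 1 of the 8 other alternatives. The cause was not tested.

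Over the 3 treatments, with all 18 arrays, the difference was -0.07 for Cd34, -0.27 for Cd27, 0.12 for Cd47, -0.07 for Cd14 and -0.43 for Cd274. With array weights it was -0.02 for Cd34, 0.01 for Cd47, -0.07 for Cd33 and -0.02 for Cd274. With the paired t-test it was -0.42 for Cd27 and -0.30 for Cd14. Leave-one-out fits ranged from -0.67 to 0.50 for Cd34, -0.55 to 0.49 for Cd27, -1.10 to 0.35 for Cd44, -0.15 to 0.21 for Cd47, -0.35 to 0.56 for Cd33, -1.29 to 0.13 for Cd69 and -1.17 to 1.16 for Cd274, and for TNFR2 BA against TNFR1 BA in JAK2V617F+ cells from -2.63 to 0.00 for Cd9.

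With the replicate number as a block, the difference was -0.09 for Cd34, -0.23 for Cd27 and 0.06 for Cd47, and 0 of the 48 genes passed, while over all probe sets 49 were called higher and 18 lower, against 31 and 6 without the block. Leaving out untreated JAK2V617F+ replicate 1 moved these counts more, to 49 higher and 70 lower over the 3 treatments, 27 and 144 untreated (against 6 and 2 with it), 49 and 6 for TNFR2 BA against untreated JAK2V617F+ cells (against 2 and 1) and 115 and 17 for TNFR1 BA (against 1 and 0), with the lone untreated JAK2V617F+ array assumed to vary like the other groups. The background shares in the text thus rest on that array, and 0 of the 48 genes passed without it. The labels do not say that a number marks an experiment. The mean correlation of deviations from group means was 0.008 within replicate 1, 0.071 within replicate 2 and 0.144 within replicate 3. It was -0.033 for arrays of unlike number, and for 14 of 17 arrays the own number gave the highest value. The spread between arrays, with 2 or 3 per group, limits what can be detected.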
